A study of Mus musculus with 18 samples.

Results

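Some genomic regions carried a CTCF interval in both knockout lines and none in wild-type mouse embryonic stem cells. CTCF was mapped by ChIP-seq (chromatin immunoprecipitation, abcam antibody, then sequencing) in a sextuple knockout (SKO, without Dnmt1, Dnmt3a, Dnmt3b, Tet1, Tet2 and Tet3), a triple knockout (TKO, without Tet1, Tet2 and Tet3) and wild type (WT), each with 3 ChIP and 3 input samples, 18 samples in all. The regions were chosen by their measured peaks: rows of equal interval were joined in each of the 3 deposited peak lists, intervals that overlapped by at least 1 bp were merged, and merged regions with SKO and TKO intervals and no WT interval were taken. They numbered 1279 of 78072 merged regions, or 1.64%.

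Both knockouts lack the TET enzymes, and SKO lacks the DNA methyltransferases as well. Each genotype is a separate line, so the missing enzymes and other differences between the lines cannot be told apart. The labels place the cells on irradiated mouse embryonic fibroblasts, with serum replacement and LIF, and do not say whether replicates came from separate cultures. The authors called peaks on pooled replicates, so a region has 1 value per genotype, no spread between replicates exists, and no test between genotypes was possible. Peak lists show where the CTCF ChIP was enriched and not which genes are expressed or deleted, so neither the cell type nor the genotypes could be checked with markers.

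CTCF is a zinc finger protein that binds a long DNA motif and, where it meets cohesin in the right orientation, stops loop extrusion and so anchors chromatin loops. Methylation of a CpG inside the motif can hinder its binding, and many CTCF sites lie at promoters and at domain boundaries. The DNMT enzymes methylate cytosine in CpG, and the TET enzymes oxidise the methyl group on the way to its removal.

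Sequences were read where the SKO summit of a region fell in a RefSeq promoter window (GRCm38.p6, 250 bases before to 50 after a gene's start), which was so for 53 of the 1279 regions (4.14%, 95% Wilson interval 3.18% to 5.38%, counting error only). The first 4 promoters below are those of this kind with the highest lower fold, meaning the smaller of the SKO and TKO fold enrichments; the last is the one that held the longer CTCF core consensus and was chosen after its sequence was searched. Each runs 5′ to 3′ along the gene's strand, and capitals mark the inner CTCF letters on either strand (AGGGGGC, the form with a central T, which is AGGTGGC, the form with an early A, which is AGAGGGC, and the form with both, which is AGATGGC), and the core consensus where present. Zglp1 lies at chr9:21067044-21067343 on the minus strand, Rnf213 at chr11:119389849-119390148 on the plus strand, Kctd8 at chr5:69341660-69341959 on the minus strand, Ap1s2 at chrX:163908767-163909066 on the plus strand and Calr at chr8:84846882-84847181 on the minus strand.
Zglp1: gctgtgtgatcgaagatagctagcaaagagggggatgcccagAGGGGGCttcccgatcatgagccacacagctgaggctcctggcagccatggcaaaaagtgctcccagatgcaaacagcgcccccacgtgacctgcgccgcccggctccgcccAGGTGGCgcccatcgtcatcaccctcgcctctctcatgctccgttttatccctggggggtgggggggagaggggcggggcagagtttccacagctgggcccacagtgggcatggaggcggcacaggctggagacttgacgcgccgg
Rnf213: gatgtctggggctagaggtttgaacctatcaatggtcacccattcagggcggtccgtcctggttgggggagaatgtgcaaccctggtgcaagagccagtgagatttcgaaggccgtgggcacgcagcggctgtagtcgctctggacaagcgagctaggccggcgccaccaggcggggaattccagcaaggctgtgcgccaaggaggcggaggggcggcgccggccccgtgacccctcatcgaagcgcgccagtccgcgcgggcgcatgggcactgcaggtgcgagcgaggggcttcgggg
Kctd8: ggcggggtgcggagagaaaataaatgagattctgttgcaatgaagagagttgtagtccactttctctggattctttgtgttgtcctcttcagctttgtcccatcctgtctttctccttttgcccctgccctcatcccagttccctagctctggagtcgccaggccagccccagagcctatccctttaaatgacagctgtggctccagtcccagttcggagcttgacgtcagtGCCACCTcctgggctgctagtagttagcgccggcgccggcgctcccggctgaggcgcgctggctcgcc
Ap1s2: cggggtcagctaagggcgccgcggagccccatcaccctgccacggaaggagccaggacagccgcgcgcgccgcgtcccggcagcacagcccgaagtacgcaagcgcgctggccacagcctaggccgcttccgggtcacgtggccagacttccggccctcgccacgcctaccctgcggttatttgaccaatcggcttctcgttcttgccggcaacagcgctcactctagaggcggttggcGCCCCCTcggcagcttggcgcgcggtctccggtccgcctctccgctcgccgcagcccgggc
Calr: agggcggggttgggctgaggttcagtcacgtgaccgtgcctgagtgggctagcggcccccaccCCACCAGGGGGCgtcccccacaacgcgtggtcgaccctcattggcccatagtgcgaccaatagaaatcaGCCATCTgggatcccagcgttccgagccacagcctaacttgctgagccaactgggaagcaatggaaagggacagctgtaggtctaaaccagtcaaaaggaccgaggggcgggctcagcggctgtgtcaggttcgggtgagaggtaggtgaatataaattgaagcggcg

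The promoter of Zglp1, which encodes a GATA-type zinc finger protein that sets the oogenic programme in mouse germ cells, held 2 such strings. The SKO summit at base 69 of the window lay 23 bp from the middle of the nearer one. The fold enrichment there was 9.61 in SKO and 7.63 in TKO. This is the authors' ratio of the ChIP pileup (fragments at the summit) to the local background, and the deposited values fit a ratio with 1 added to both terms. At Ap1s2, a subunit of a clathrin adaptor complex, the SKO summit lay inside the string, 2 bp from its middle. The folds were 5.91 in SKO and 6.74 in TKO. At Kctd8, an auxiliary subunit of GABAB receptors, the SKO summit lay 31 bp from the middle of the string, with folds of 6.01 in SKO and 9.23 in TKO. The promoter of Rnf213, a ubiquitin ligase with AAA ATPase modules, held none of the strings at folds of 6.85 in SKO and 8.09 in TKO. These 5 windows had 14 to 39 CpG dinucleotides. Neither the strings nor the core consensus searched for can contain a CpG, so the capitals hold none by design. Forms of the motif with a CpG were not searched. At Zglp1, Ap1s2 and Calr a CpG straddles the edge of a capital string.

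The Calr promoter stood apart in depth. Calr encodes calreticulin, a calcium-binding chaperone of the endoplasmic reticulum, and shares this region with the divergent gene 1700122E12Rik. Its SKO summit had 94 ChIP fragments, the highest SKO pileup of the 1279 regions, and its TKO summit had 53. The local background there was also high, 14.7 fragments in SKO and 15.7 in TKO, and with 1 added to each term the folds were 6.07 in SKO and 3.23 in TKO. The nearest WT interval was 0.801 kb away. A match to these letters is a description of sequence and does not show a binding site.

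Across the 1279 regions the peaks were weak beside the rest of the lists. The SKO fold ran from 1.96 to 22.8 with a median of 5.15 (quartiles 4.22 and 6.34), and the TKO fold from 1.78 to 17.0 with a median of 5.14 (quartiles 4.09 and 6.31). Those medians sat at percentile 13.4 of the SKO list and 14.4 of the TKO list. Regions found in all 3 lists had median folds of 11.7 in SKO, 11.2 in TKO and 12.7 in WT. The median pileup was 15 fragments in SKO and 18 in TKO, where the fewest fragments that made a listed peak at the genome-wide background were 7 in SKO, 8 in TKO and 7 in WT. These are the values that chose the regions, so they are given as a description.

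The folds of the 2 knockouts were alike on balance and scattered region by region. SKO fold was higher than TKO fold in 680 regions (53.2%), and the median ratio of SKO fold to TKO fold was 1.025 (quartiles 0.823 and 1.26), beside 1.035 in regions of all 3 lists. At like strength the ratios differed more. With −log10 q, the peak caller's adjusted p-value on a −log10 scale, under 5 in the weaker knockout the medians were 1.00 in these regions and 0.830 in all 3 lists, from 5 to 10 they were 1.02 and 0.934, from 10 to 20 they were 1.07 and 0.990, and at 20 or more 1.16 (n = 9) and 1.08. The SKO fold was at least 1.5 times the TKO fold in 139 regions and the TKO fold at least 1.5 times the SKO fold in 120. Both folds reached 5 in 480 regions, 8 in 24 and 10 in 3. The genome-wide background, the lowest in a list, was 1.37 fragments over a position in SKO, 1.82 in TKO and 1.76 in WT, and its part in the ratio was not tested.

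**Figure D1:**
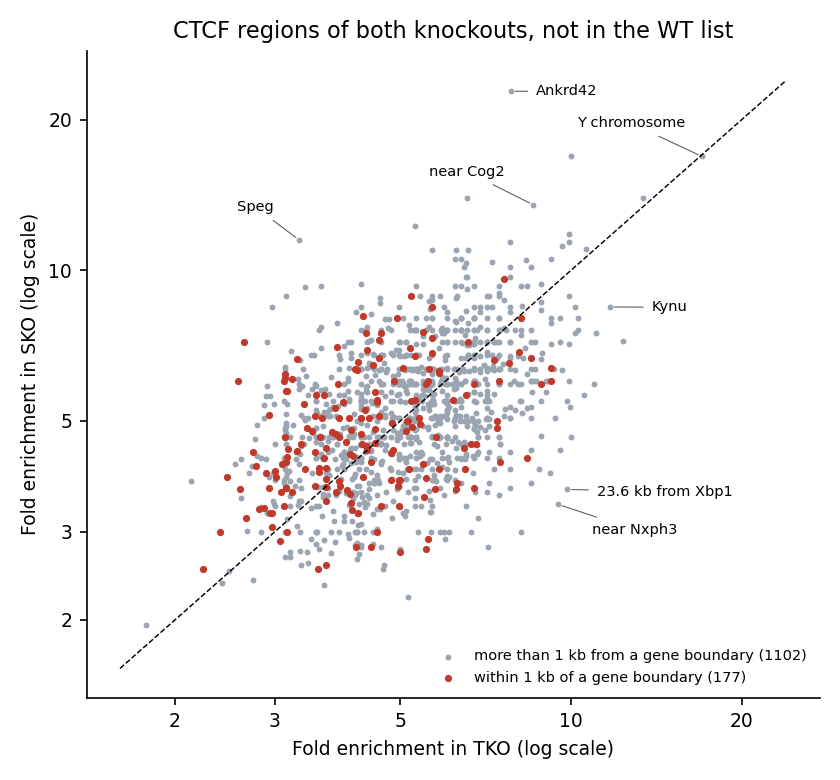
Each point is 1 of the 1279 regions, with its fold enrichment in TKO on the horizontal and in SKO on the vertical axis, both on log scales; the dashed line marks equal folds, and red points lie within 1 kb of a protein-coding gene boundary. Most points lie between folds of 3 and 8 on both axes, with Ankrd42 and Speg far above the line and the regions near Xbp1 and Nxph3 far below it.

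Among the 14 regions of highest lower fold on the autosomes and X, one at chr16:66013613-66013971 (mm10), more than 100 kb from any protein-coding gene boundary, had folds of 11.0 in SKO and 10.6 in TKO. A region on chromosome 2 at 80762218 to 80762500, also in a stretch without protein-coding genes, had 16.9 in SKO and 9.99 in TKO. The folds of the first were nearly equal in the 2 lines, and at the other the SKO fold was 1.69 times the TKO fold.

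Of the 14 regions of highest lower fold, 6 lay inside a gene. Inside Sv2c, a synaptic vesicle glycoprotein gene, the folds were 8.87 in SKO and 9.94 in TKO. Inside Adam22, which encodes a catalytically inactive ADAM protein that binds LGI1 at synapses, they were 8.45 in SKO and 10.2 in TKO. A region 19.3 kb from Prdm13, a zinc finger transcription factor gene of neural development, had 9.38 in SKO and 8.87 in TKO.

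Among the others, the folds inside genes were within 1.5 times of each other. Inside Mid1, a microtubule-associated ubiquitin ligase gene on X, the folds were 11.2 in SKO and 9.62 in TKO. Inside Tnk2, a non-receptor tyrosine kinase gene, they were 8.65 in SKO and 8.85 in TKO, and the 2 summits fell on the same base. Inside Hnf4g, a nuclear receptor gene, they were 10.1 in SKO and 8.52 in TKO. Inside Kynu, which encodes kynureninase, they were 8.45 in SKO and 11.7 in TKO. Beside Cog2, a Golgi complex subunit gene 5.67 kb away, the SKO fold of 13.5 stood over a background of 1.37 fragments and the TKO fold of 8.58 over one of 3.78, while the pileups were 31 in SKO and 40 in TKO. By fold SKO was thus the higher at Cog2, and by pileup TKO. The pileups are fragment counts not scaled between the lists, whose genome-wide background was 1.37 in SKO and 1.82 in TKO. Another 2 were intergenic, 165 kb from Galnt5 (11.8 in SKO, 9.94 in TKO) and 149 kb from Rab10 (10.6 in SKO, 9.23 in TKO).

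Outside the autosomes and X, 6 regions were found, 3 of them on Y and 3 on scaffolds outside the chromosomes. A Y region at chrY:90828875-90829281, chosen after its values were seen, had the highest lower fold of all, 16.9 in SKO and 17.0 in TKO. Y held 36 intervals in SKO, 31 in TKO and 36 in WT, so all 3 lists had intervals placed on Y. Whether sequence there is shared with other chromosomes was not examined.

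The regions in which the knockouts differed most were also chosen after their values were seen. Inside Speg, a kinase gene of striated muscle, the fold was 11.5 in SKO and 3.31 in TKO, and the pileup 37 in SKO and 19 in TKO. Inside Ankrd42, an ankyrin repeat gene, the fold was 22.8 in SKO and 7.84 in TKO, and the pileup 53 in SKO and 34 in TKO. Inside Rnf17, a Tudor domain gene of spermatogenesis, the fold was 8.43 in SKO and 2.97 in TKO, although the pileups were 20 in SKO and 16 in TKO. At Speg, Ankrd42 and Rnf17 the local background ran from 1.37 to 2.304 fragments in SKO and from 3.46 to 5.04 in TKO. The folds thus differed by more than the pileups, which are not scaled between the lists.

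In the other direction, a region 2.32 kb from Nxph3, a gene for a ligand of neurexins, had folds of 3.40 in SKO and 9.49 in TKO and pileups of 16 in SKO and 32 in TKO. A region 23.6 kb from Xbp1, the transcription factor gene of the unfolded protein response, had folds of 3.65 in SKO and 9.86 in TKO and pileups of 16 in SKO and 43 in TKO. On chromosome 18 a region at 85595928 to 85596268, 615 kb from the nearest protein-coding gene boundary, had folds of 3.00 in SKO and 8.16 in TKO. The pileup there was 8 fragments in SKO and 22 in TKO. At these 3 regions the pileup, not scaled between the lists, was higher in TKO. The local background was 3.99 fragments in SKO and 2.48 in TKO near Nxph3, 3.66 in SKO and 3.46 in TKO near Xbp1, and 1.997 in SKO and 1.82 in TKO at the chromosome 18 region (nearest boundary Fbxo15).

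The 2 lines placed their summits close together. The median distance between the SKO and TKO summits of a region was 24 bp (quartiles 11 and 47), 998 regions (78.0%) had them within 50 bp and 1176 within 100 bp, and the largest distance was 649 bp. Strength was again taken as the lower of the SKO and TKO −log10 q values. With this under 5 the median was 35 bp (n = 587), beside 33 bp in regions of all 3 lists of that strength (n = 2227). From 5 to 10 it was 20 bp (n = 545) beside 19 bp, and from 10 to 20 it was 15 bp (n = 138) beside 14 bp. At 20 or more it was 15 bp (n = 9) beside 9 bp (n = 32078). The distance was thus nearly the same in both classes up to 20, and the 9 strongest regions had the larger one. Overlap of the intervals is part of the rule and limits how far apart summits can lie.

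The median region was 309 bp wide, and 3 regions held more than 1 SKO interval. The WT interval nearest to a region was 6.58 kb away at the median (quartiles 2.35 and 18.0 kb, n = 1278 regions on a chromosome or scaffold with a WT interval), beside 6.66 kb for regions in SKO only and 7.13 kb for regions in TKO only. It lay within 1 kb for 153 regions (12.0%) and within 500 bp for 58. Just inside the rule were a region in Mtf2, a Polycomb-like gene, 139 bp from a WT interval (folds 5.26 in SKO and 6.03 in TKO), one beside Phyh, a peroxisomal hydroxylase gene, at 192 bp (6.47 in SKO, 4.47 in TKO), and one at 201 bp whose nearest boundary is that of Naf1 (3.16 in SKO, 3.82 in TKO). Just outside it were regions near Plch1, where a WT interval shared 102 bp (folds 7.25 in SKO, 3.13 in TKO, 4.21 in WT), near AF067061 with 119 bp (4.19 in SKO, 4.30 in TKO, 3.12 in WT) and in 1700016H13Rik with 119 bp (6.47 in SKO, 9.05 in TKO, 5.35 in WT).

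How often a region of one knockout was found in the other differed with strength and with the presence of a WT interval. Of the 3889 SKO regions without a WT interval, 32.9% had a TKO interval (95% Wilson interval 31.4% to 34.4%), against 93.6% of the 55287 SKO regions with one. Of the 4638 TKO regions without a WT interval, 27.6% had an SKO interval (26.3% to 28.9%), against 90.2% of the 57366 with one. In the weakest decile of SKO regions by −log10 q the shares were 23.9% without and 65.7% with a WT interval, and in the fourth decile 67.2% without and 94.4% with one. In TKO they were 19.5% and 49.5% in the weakest decile, and 59.9% and 90.5% in the fourth, again without and with a WT interval. In each of the 5 weakest deciles of both lists, the share found in the other knockout was lower without a WT interval, with Wilson intervals that did not overlap. Since the rule rests on the same intervals, this is a description of the lists.

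**Figure D2:**
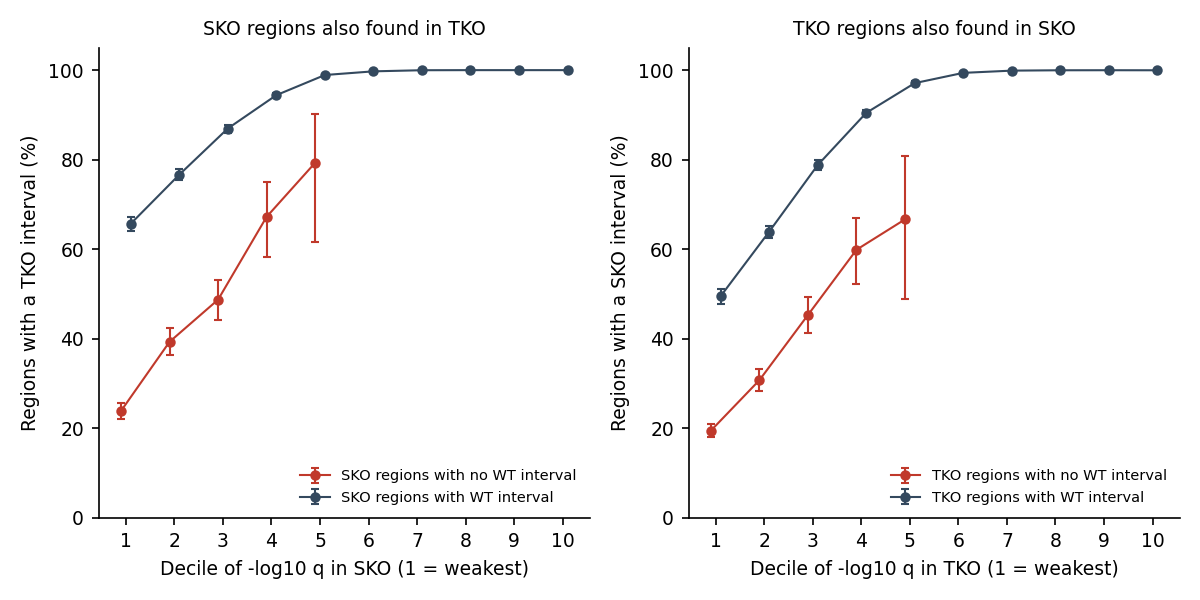
Share of SKO regions with a TKO interval (left) and of TKO regions with an SKO interval (right) in each decile of the list by −log10 q, weakest first, for regions without (red) and with (dark) a WT interval; bars are 95% Wilson intervals and points of fewer than 20 regions are not drawn. The red points climb from 23.9% to 79.3% on the left and from 19.5% to 66.7% on the right, below the dark points throughout.

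Position relative to genes was not used by the rule. Of the 1279 regions, 177 (13.8%, 12.1% to 15.8%) had their SKO summit within 1 kb of a protein-coding gene boundary, against 18.3% of regions in SKO only (16.8% to 19.8%), 13.04% in TKO only (11.9% to 14.2%), 7.30% in WT only (6.80% to 7.83%) and 8.93% in all 3 lists (8.69% to 9.18%). Inside a gene and further than 1 kb from its boundaries lay 562 regions (43.9%), outside genes and 1 to 100 kb away 412 (32.2%), and more than 100 kb away 128 (10.0%). The corresponding shares in all 3 lists were 44.5%, 37.8% and 8.80%. Where strand was known from the promoter table, 120 of 145 boundaries were gene starts (82.8%, 75.8% to 88.0%), against 85.3% in SKO only, 80.8% in TKO only, 70.9% in WT only and 66.6% in all 3 lists (65.1% to 68.1%). The interval of the 1279 regions lay above those of WT only and of all 3 lists for both measures and overlapped that of TKO only. It lay below that of SKO only for nearness to a boundary and overlapped it for gene starts.

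Among the 1279 regions, the share near gene boundaries was higher in the weaker ones. With a −log10 q under 5 in at least 1 knockout, 109 of 587 regions (18.6%, 15.6% to 21.9%) lay within 1 kb of a boundary, and with at least 5 in both, 68 of 692 (9.83%, 7.83% to 12.3%). Regions of all 3 lists split in the same way had 11.8% (10.5% to 13.2%, n = 2227) and 8.80% (8.56% to 9.06%, n = 49536). Regions in SKO only, split by their own −log10 q, had 22.9% and 13.2%, and those in TKO only 16.7% and 9.92%. The intervals of the 1279 regions and of all 3 lists did not overlap among weaker regions and overlapped among stronger ones. A single cut hides a rise among the strongest regions of all 3 lists. By SKO −log10 q their share was 11.9% in the weakest decile and 15.4% in the strongest. By TKO −log10 q it was 11.0% and 15.5%. None of the 1279 regions lay in these strongest deciles.

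**Figure D3:**
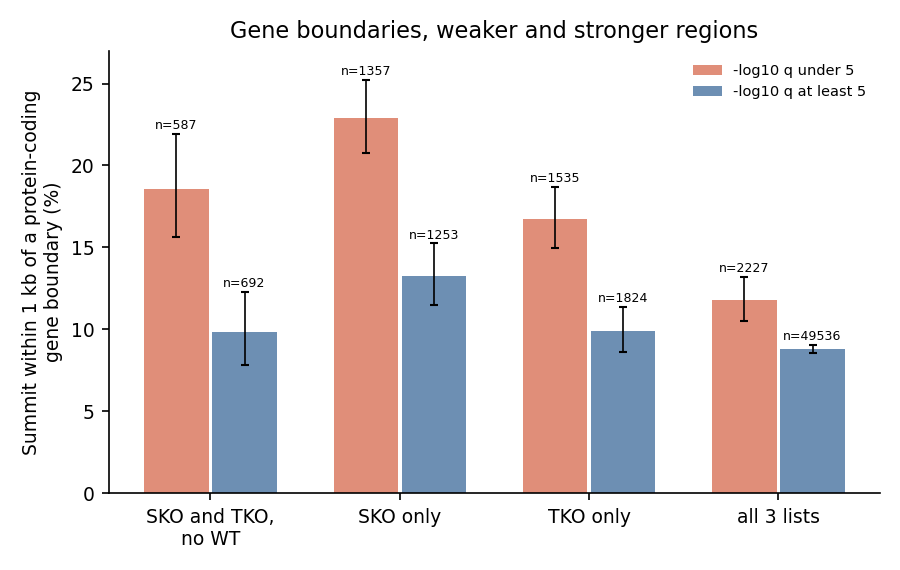
Share of regions with the summit within 1 kb of a protein-coding gene boundary, from left to right in regions of SKO and TKO without WT, SKO only, TKO only and all 3 lists, for −log10 q under 5 (orange) and at least 5 (blue), taking the lower of the SKO and TKO values where both exist; bars end in 95% Wilson intervals. At this cut the weaker regions have the higher share in each class, 18.6% beside 9.83% in the first.

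Among the 177 boundary regions, the one of highest lower fold lay in St7 (8.03 in SKO, 8.16 in TKO), 898 bp from its boundary, and Zglp1 and Rnf213, shown above, came next. In H2-T24, a class Ib major histocompatibility gene, the folds were 6.67 in SKO and 8.50 in TKO, 18 bp from the boundary. Near Tekt2, a tektin of ciliary and flagellar microtubules, they were 6.61 in SKO and 7.30 in TKO, and near Ctsr, a placental cathepsin, 7.18 in SKO and 6.58 in TKO. In Abcg8, which forms a sterol transporter with Abcg5, they were 6.52 in SKO and 7.78 in TKO. In the kinase gene Taok3 they were 6.38 in SKO and 9.23 in TKO, and in Kcnk12, a potassium channel gene of the tandem-pore family, 6.01 in SKO and 7.45 in TKO. Of these 10 regions, Zglp1 and Ctsr had the higher fold in SKO.

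Promoter windows that held a summit were rich in CpG. Over the 58 windows of the 53 regions the median GC content was 61.8% and the median ratio of observed to expected CpG 0.754, and 43 windows (74.1%) reached 0.6. Over all 32817 promoter windows the same values were 52.7%, 0.383 and 35.8%. Regions in all 3 lists had 59.5%, 0.697 and 61.9%, and those in TKO only 61.5%, 0.754 and 74.6%. Those in SKO only had 60.7%, 0.795 and 79.9%, and those in WT only 60.3%, 0.743 and 67.7%. The promoters of Bdnf, a neurotrophin (4.83 in SKO, 6.74 in TKO), Gatad2a, a NuRD subunit (5.01 in SKO, 5.16 in TKO), Foxa3, an endoderm transcription factor (5.72 in SKO, 4.52 in TKO), and Grik2, a kainate receptor subunit (5.01 in SKO, 6.38 in TKO), were among the 53 and were chosen after their values were seen.

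The inner CTCF letters lay near these summits in a smaller share of regions than in all 3 lists. One of the 4 strings lay within 50 bp of the SKO summit in 12 of 53 regions (22.6%, 13.5% to 35.5%), against 30 of 147 in SKO only (20.4%), 18 of 126 in TKO only (14.3%), 29 of 145 in WT only (20.0%) and 549 of 1337 in all 3 lists (41.1%, 38.4% to 43.7%). Anywhere in the window, a string was found in 24 of the 58 windows of these regions (41.4%), against 62.2% of the windows of all 3 lists and 27.6% of all promoter windows. The core consensus was found in 1 of 53 regions (1.89%, 0.334% to 9.94%), against 123 of 1337 in all 3 lists (9.20%, 7.77% to 10.9%) and 0.558% of all windows. Limited to the strengths between the quartiles of the 1279 regions (lower −log10 q of 3.64 to 7.79), the letters were found in 4 of 26 regions (15.4%, 6.15% to 33.5%) and in 25 of 108 regions of all 3 lists (23.1%, 16.2% to 31.9%), and these intervals overlapped. A missing match says only that these letters are not in that window.

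**Figure D4:**
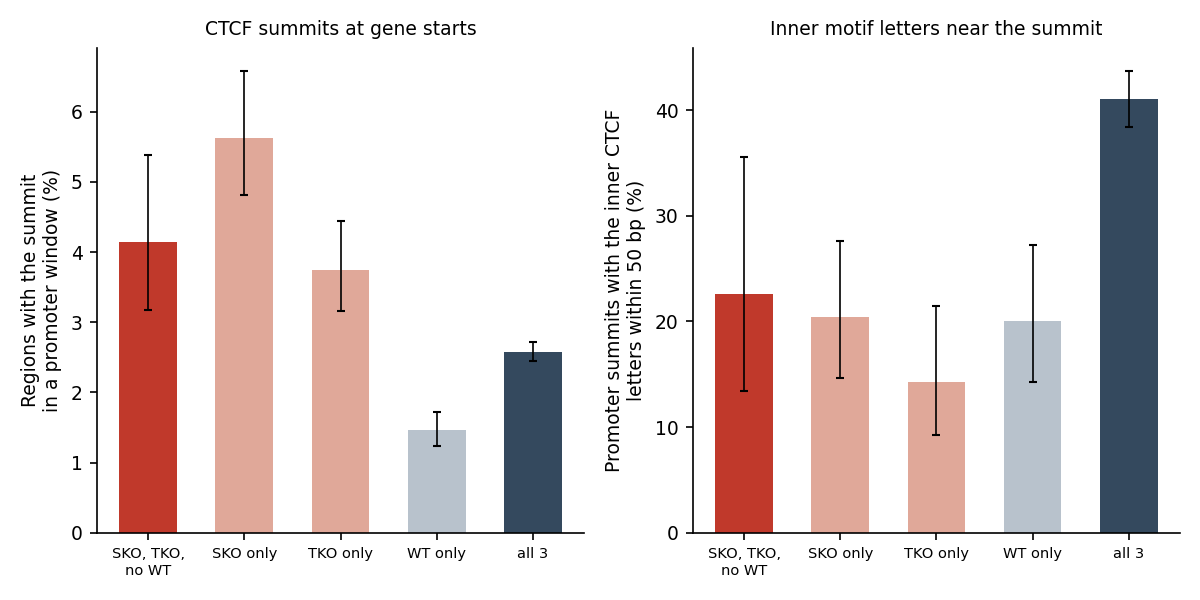
Left, share of regions with the summit in a RefSeq promoter window; right, share of those promoter summits with inner CTCF letters within 50 bp, for regions of SKO and TKO without WT, SKO only, TKO only, WT only and all 3 lists, with 95% Wilson intervals. The first class has 4.14% on the left and 22.6% on the right, beside 2.58% and 41.1% in all 3 lists.

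By chromosome, X had the highest share outside Y and scaffolds, 53 of 2179 merged regions (2.43%, exact 95% interval 1.83% to 3.17%), against 1.61% over the autosomes (1.52% to 1.70%). Among autosomes the share ran from 0.908% on chromosome 13 (29 of 3194, 0.609% to 1.30%) to 1.899% on chromosome 5 (106 of 5583). X held 1619 intervals in SKO, 1609 in TKO and 1953 in WT. At regions of all 3 lists on X the median local background was 1.00 times the lowest in SKO, 1.04 times in TKO and 1.05 times in WT, against 1.87, 1.91 and 1.96 times on the autosomes, so X had the lower background in each line. The median ratio of SKO to WT pileup at those regions was 0.826 on X and 0.730 on autosomes, and that of TKO to WT 0.900 on X and 0.891 on autosomes. The part of these differences in the X share was not tested.

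**Figure D5:**
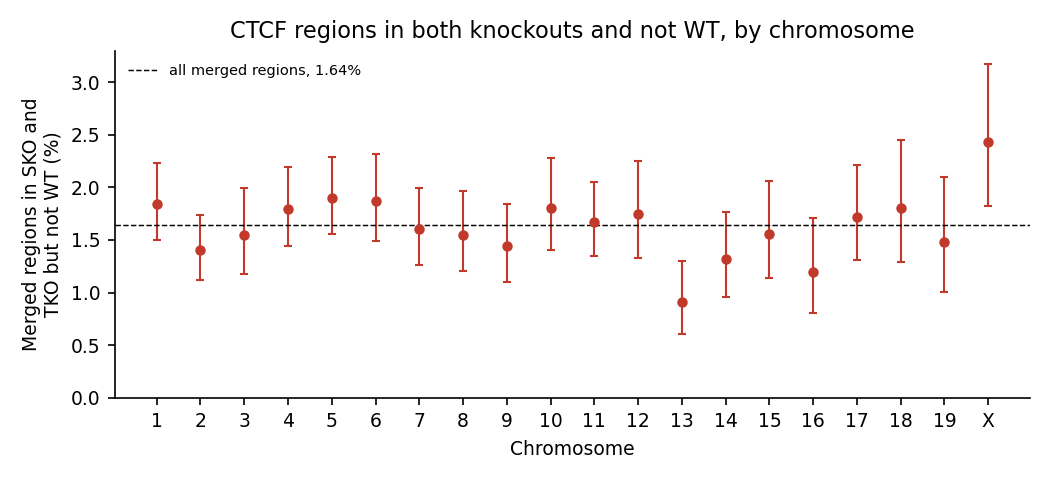
Share of the merged regions of each autosome and X that were in SKO and TKO and not in WT, with exact binomial 95% intervals; the dashed line is the share over all merged regions, 1.64%. Of the autosomes and X drawn, X lies highest at 2.43% and chromosome 13 lowest at 0.908%; Y, with 3 of 49, is not drawn.

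Most genes that had one of the regions had no other. The regions were 1.64% of all merged regions and no other class was counted in this way, so this is a description. Within a gene or 10 kb of it, 1131 protein-coding genes had at least 1, 54 had at least 2 and 1 had 3. That 1 was Dapk2, a death-associated protein kinase gene, where 3 of 7 merged regions qualified. They had folds of 10.5 in SKO and 8.34 in TKO at 2.49 kb from the gene, 5.07 in SKO and 4.97 in TKO inside it, and 5.05 in SKO and 7.18 in TKO at another place inside it. The next genes each had 2 of 3 merged regions, and the folds given are those of the region with the higher lower fold. Those taken by the naming rule, which left out Tlr9 with the same counts, were Serpinb10, a serine protease inhibitor (9.19 in SKO, 6.55 in TKO), Pmel, a fibril protein of melanosomes (5.11 in SKO, 5.75 in TKO), Ints2, an Integrator subunit (6.01 in SKO, 9.04 in TKO), and 1700020D05Rik (4.72 in SKO, 3.84 in TKO). Of these regions, the one for Ints2 lay inside that gene and the one for Serpinb10 1.56 kb from it. The one for Pmel lay inside Dgka, 1267 bp from Pmel, and the one for 1700020D05Rik inside Cfl1. Among neighbouring regions, 13 pairs lay less than 10 kb apart, a count not made for other classes. The closest, 1149 bp apart, flanked a boundary of Tekt2, and the next lay 1564 bp apart in Cd2ap, an adaptor of the actin cytoskeleton, and 2137 bp apart in Trim25, a ubiquitin ligase of antiviral signalling.

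Over 15 gene lists taken with 10 kb on each side, 38 of 2425 merged regions qualified (1.57%), beside 1.64% of all merged regions. Zinc finger protein genes had 23 of 1199 (1.92%, 1.28% to 2.86%), among them 2 of 15 at the transcription factor gene Zfp423 and the single merged region of Zfp820 (7.01 in SKO, 8.31 in TKO). Olfactory and vomeronasal receptor genes had 6 of 301 (1.99%, 0.917% to 4.28%), among them the single merged regions of Olfr66 (7.60 in SKO, 7.10 in TKO), Vmn2r62 (7.60 in SKO, 6.39 in TKO) and Vmn1r80 (5.91 in SKO, 4.99 in TKO). Both intervals include the share over all merged regions.

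Genes of subunits and associated proteins of NuRD, a complex that couples nucleosome remodelling to histone deacetylation, had 3 of 107. These were at Gatad2a, Zmynd8 (4.64 in SKO, 5.87 in TKO) and Rbbp7 (3.38 in SKO, 3.55 in TKO). Pluripotency genes had 2 of 93, beside the reprogramming factor gene Klf4 (5.26 in SKO, 4.33 in TKO), 0.540 kb from its boundary, and beside Tfcp2l1, a naive pluripotency factor gene (3.93 in SKO, 3.69 in TKO). Germline genes had 2 of 109, in Tex14, which is needed for intercellular bridges of germ cells (4.45 in SKO, 5.79 in TKO), and in Sycp3, a synaptonemal complex gene (3.60 in SKO, 7.10 in TKO). Protocadherin genes had 1 of 85, in Pcdha6 (6.83 in SKO, 5.68 in TKO). Chromosome architecture genes had 1 of 91, beside Zfp143 (4.16 in SKO, 4.18 in TKO), and silencers of endogenous retroviruses 1 of 86, in Tasor of the HUSH complex (6.67 in SKO, 4.10 in TKO). As shares these were 2.80% (0.958% to 7.92%) for NuRD, 2.15% (0.592% to 7.505%) for pluripotency and 1.84% (0.505% to 6.44%) for germline genes. Protocadherins had 1.18% (0.208% to 6.37%), chromosome architecture 1.10% (0.194% to 5.965%) and silencers 1.16% (0.206% to 6.30%). Each of these intervals includes the 1.64% of all merged regions.

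The other 7 lists had none. Imprinted genes had 0 of 140, which allows a share of up to 2.14%, DNA methylation enzymes and readers 0 of 67 (up to 4.48%), early lineage genes 0 of 65 (up to 4.62%) and feeder fibroblast markers 0 of 55 (up to 5.45%). Hox genes had 0 of 37 (up to 8.11%), the X inactivation centre 0 of 26 (up to 11.5%) and the list of 2-cell-like genes 0 of 11 (up to 27.3%). Each of these limits lies above 1.64%, so a share like that of all merged regions could not have been told from none with so few regions. The genes of the deleted enzymes had none of the regions, of 10 merged regions at Tet1, 6 at Tet2, 3 at Tet3, 6 at Dnmt1, 6 at Dnmt3a and 5 at Dnmt3b. Ctcf, with 4, and the imprinted H19, with 2, had none either.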

How the data were processed

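CTCF ChIP-seq lists of 3 genotypes were used, each called by the authors on 3 pooled ChIP replicates against input, per the labels. Per the submitters' processing notes the tools were MACS2 2.1.2, Bowtie2 2.3.4, deepTools 3.5.0, SAMtools 1.9, FastQC 0.11.7 and bedtools 2.25.0, with build mm10. How each was run is not given in the sources used here. The authors deposited for each summit a fold enrichment (a ratio), a −log10 p, a −log10 q and a score that is 10 times the −log10 q cut to a whole number. The lowest deposited −log10 q was 1.31 in SKO, 1.30 in TKO and 1.30 in WT.

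Rows of equal interval were joined, with the strongest summit kept, which gave 59372 SKO, 62238 TKO and 71075 WT intervals. Merging was checked with bedtools 2.31.1 and on simulated lists. ChIP pileup and background were solved from −log10 p and the fold, taken as (pileup + 1) over (background + 1), with relative error under 0.0001, which succeeded for all 1279 members. Read totals were not used here, and pileups were not scaled between the lists. Intervals on shares are 95% Wilson, and on chromosomes exact binomial. They cover counting error only, since regions are not replicates and each list pools its replicates. A count of 0 allows 3 counts of the total.

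Positions came from the RefSeq gene table of GRCm38.p6 (21900 protein-coding genes, no strand) and sequences from its promoter table (32817 windows). No mm10 genome was used, so the planned motif search covered promoter windows alone. Of the gene list symbols, Dux and Xite were unmatched. A region is named by the shortest protein-coding gene holding its summit or the nearest boundary within 100 kb, or by that boundary with its distance beyond.

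The regions, gene lists and rules were chosen with earlier results of these data known. Named were the 14 members of highest lower fold, the 10 of highest lower fold within 1 kb of a boundary, the 5 genes with most members, up to 3 genes per list, the 3 closest pairs, the 3 members nearest to WT, the 3 regions with the smallest WT overlap, the deleted enzymes, H19 and Ctcf; 2 of the 14 are not reported here. Alternatives changed overlap, summit distance, −log10 q, WT width, chromosomes, windows and biotypes. Python 3.11.15, pandas 2.3.3, NumPy 2.4.6, SciPy 1.17.1 and matplotlib 3.10.9 were used.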

Additional observations from a re-analysis of the deposited data

How the results depend on the processing

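The number of regions in SKO and TKO without WT was 1279 as reported, 1203 with an overlap of at least 50% of each interval, 1176 with summits within 100 bp, 1221 with WT intervals widened by 500 bp, and 1273 on autosomes and X alone. The number was 978 when all 3 lists were held to −log10 q of 5 or more. That count also takes in regions with a WT interval under 5, which are not among the 1279. It fell to 692 with a −log10 q of at least 5 in SKO and TKO against the whole WT list. The 24 members named for their lower fold, over the genome or near boundaries, stayed under these settings except for 1 under the 50% overlap. They were chosen by fold, so their staying at a higher −log10 q is only a description. Regions named for other reasons were not counted here, and those at Mtf2, Phyh and Naf1 lie within 500 bp of a WT interval. The share within 1 kb of a gene boundary, 13.8%, was 21.9% with a 2.5 kb window, 18.0% with genes of all biotypes and 9.83% among regions at −log10 q of 5 or more in both knockouts. In all 3 lists it was 8.93%, 17.1%, 14.2% and 8.80% under the same settings. The 38 members in gene lists became 21 with gene bodies alone and 88 with 50 kb on each side, of 2425, 1284 and 5141 merged regions, which is 1.57%, 1.64% and 1.71%. The median ratio of SKO to TKO fold stayed between 1.025 and 1.035. The share of promoter summits with CTCF letters, 22.6%, was 34.0% within 100 bp and 34.8% (n = 23) at a −log10 q of at least 5 in both. No paired analysis was possible because each list pools its replicates, and for the same reason no replicate could be left out. A region outside the WT list may hold WT signal under the authors' threshold. The SKO list rests on the lowest background of the 3. Read depth was not examined, so its part in what the weakest regions can show was not tested.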
